A study of Mus musculus with 8 samples.

Results

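Smooth muscle contractile genes were measured in the whole aorta of mice that develop atherosclerosis, with and without the natriuretic peptide receptor NPRC. The group consists of 10 genes, namely the actins Acta2 and Actg2, the thin filament proteins Tagln, Cnn1, Smtn and Lmod1, the myosin genes Myh11, Myl9 and Mylk, and the intermediate filament gene Des. They were chosen by name from the 48607 loci of the gene table, and a gene with several loci was represented by the locus with the most counts. All 10 were found, and all 10 were among the 20506 loci that passed the filter of at least 1 FPKM (fragments mapped to a transcript, divided by its length and by the size of the library) in at least 3 libraries.

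Smooth muscle cells of the arterial media contract when calcium activates myosin light chain kinase, which phosphorylates the regulatory light chain so that myosin pulls on actin filaments. The genes of this apparatus are controlled together by serum response factor and its cofactor myocardin, which act through a DNA element called the CArG box. In atherosclerosis, smooth muscle cells are known to lose contractile gene expression when they migrate into the plaque and change their phenotype.

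All mice lacked apolipoprotein E (ApoE-/-), came from a C57BL/6 background and ate a Western diet rich in fat and cholesterol for 12 weeks. The NPRC-/-ApoE-/- mice carried in addition a frameshift in the first exon of Npr3, the gene of NPRC, made with CRISPR/Cas9 and present in all tissues. The titles give 5 ApoE-/- libraries, with the numbers 1 to 5, and 3 NPRC-/-ApoE-/- libraries, with the numbers 1 to 3. A genotype entry, recorded apart from the title, contradicted the title in 4 of the 8, since ApoE-/- 4 and 5 were entered as NPRC-/-ApoE-/- and NPRC-/-ApoE-/- 1 and 2 as ApoE-/-. Only ApoE-/- 1, 2 and 3 and NPRC-/-ApoE-/- 3 had 2 labels that named the same genotype. Libraries are called by their titles here, and the comparisons of the 10 contractile genes are given by title and by genotype entry. The values of other genes are by title unless the genotype entry is named.

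The total count was 62969165 to 86693276 per library. Npr3 itself (chr15:11839896-11907287, minus strand in GRCm38) was measured at 0.620 to 1.69 FPKM in ApoE-/- and at 1.13 to 1.39 in NPRC-/-ApoE-/- libraries, so its RNA level did not separate the groups (log2 fold change 0.10, standard error 0.28, adjusted p = 0.90, edgeR's quasi-likelihood test). By genotype entry its log2 fold change was 0.16 (adjusted p = 1.00, same test), and a frameshift need not lower the RNA. The Npr3 level was therefore no check of the labels.

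RefSeq promoters, from 250 bases before to 50 bases after the RefSeq start in GRCm38.p6, were at hand for 7 of the 10 genes. These were Acta2, Cnn1, Smtn, Lmod1, Myl9, Mylk and Des. They were searched for the CArG box, a motif of 10 bases that is its own complement and so reads the same on both strands, with at most 1 mismatch. Of all 32851 RefSeq promoters of this length, 21.1% held such a match, 3.70% held 2 or more, and 1.63% held a match without mismatch. Acta2, Lmod1 and Myl9 held 2 matches each, and the other 4 promoters held none. The windows of Mylk (chr16:34784700-34784999) and Smtn (chr11:3539243-3539542) lay inside the GENCODE M21 span of the gene. For both, the sequence at the GENCODE start of the gene was therefore not searched. Acta2, Lmod1 and Myl9 are shown because they hold matches to the element, which are in capitals. The upstream match of Myl9 had 0 mismatches and the other 5 had 1 each. The stretches of Lmod1 (chr1:135324563-135324806, plus strand) and Myl9 (chr2:156775214-156775419, plus strand) end at the start of the gene in GENCODE M21. For Acta2, GENCODE starts the gene further upstream than RefSeq, and the matches lie before the RefSeq start but inside the GENCODE span. Only the matches with 10 bases on each side are therefore given, at chr19:34255438-34255467 and chr19:34255388-34255417 on the minus strand.
Acta2, first match: gtgctgaggtCCCTATATGGttgtgttaga
Acta2, second match: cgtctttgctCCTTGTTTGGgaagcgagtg
Myl9: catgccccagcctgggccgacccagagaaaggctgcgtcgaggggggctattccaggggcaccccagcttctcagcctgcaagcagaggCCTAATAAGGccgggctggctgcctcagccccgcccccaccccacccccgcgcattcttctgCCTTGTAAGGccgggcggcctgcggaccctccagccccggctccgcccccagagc
Lmod1: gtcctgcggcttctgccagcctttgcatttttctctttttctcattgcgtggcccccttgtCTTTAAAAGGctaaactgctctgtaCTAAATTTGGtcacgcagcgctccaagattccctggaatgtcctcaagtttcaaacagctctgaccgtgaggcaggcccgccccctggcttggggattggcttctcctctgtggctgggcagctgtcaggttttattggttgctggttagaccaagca

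The match without mismatch was the upstream one of Myl9, which began 161 bases before the RefSeq start. A match in these letters is not a measured binding site, and an annotated start may differ from the start used in the aorta.

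By level, the 10 genes spanned 2 orders of magnitude. Acta2, the smooth muscle alpha-actin, had a mean of 1249 FPKM over the 8 libraries and was the 7th highest of all loci. Myl9 (294), Tagln (263) and Myh11 (195) followed, then Cnn1 (67.0), Smtn (41.3), Actg2 (39.8), Mylk (35.3), Des (15.0) and Lmod1 (10.8, all mean FPKM). Some neighbours in this order did not differ beyond the libraries, since Myl9 exceeded Tagln in 5 of 8 libraries, Smtn exceeded Actg2 in 5, Actg2 exceeded Mylk in 4 and Des exceeded Lmod1 in 6, while the other neighbours kept their order in all 8. The order also depends on the transcript lengths used for the FPKM, which are not given in the sources used here. In counts, Lmod1 stood above Des in every library (11717 to 47766 against 2477 to 9530). The 10 genes together took between 0.585% (ApoE-/- 4) and 1.46% (NPRC-/-ApoE-/- 3) of all counts of a library, with 95% Wilson intervals of 0.5833 to 0.5866% and 1.459 to 1.464%, which cover counting error only.

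Of the actins, Acta2 (chr19:34241090-34255590, minus strand, here and below in GRCm38 with GENCODE M21) forms most of the thin filament of vascular smooth muscle. Its FPKM was 849, 1123, 1149, 956 and 1189 in ApoE-/- 1 to 5 and 1172, 1577 and 1982 in NPRC-/-ApoE-/- 1 to 3. NPRC-/-ApoE-/- 2 and 3 stood above every other library, whereas NPRC-/-ApoE-/- 1 fell below ApoE-/- 5. Acta2 was 1053 FPKM ± 144 (SD, n = 5) in ApoE-/- and 1577 ± 405 (SD, n = 3) in NPRC-/-ApoE-/- libraries, a log2 fold change of 0.61 (standard error 0.24, unadjusted p = 0.032, adjusted p = 0.33, quasi-likelihood test of edgeR, adjusted over all loci by the Benjamini-Hochberg method). Actg2 (chr6:83512905-83536265, minus strand), the gamma-actin of visceral smooth muscle, was at 26.5, 36.2, 39.5, 34.2 and 32.4 FPKM in ApoE-/- 1 to 5 and at 37.0, 57.2 and 55.4 in NPRC-/-ApoE-/- 1 to 3. Its pattern was that of Acta2, with the first NPRC-/-ApoE-/- library inside the range of the others (log2 fold change 0.58, standard error 0.20, adjusted p = 0.31, same test). Actg2 amounted to 2.73 to 3.63% of the Acta2 FPKM in every library. The actin genes are close in coding sequence, and how reads that fit several of them were counted is not given in the sources used here, so the split between Acta2 and Actg2 is uncertain.

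The 4 genes of thin filament proteins included both genes whose titled groups did not overlap. Cnn1 (chr9:22099216-22109630, plus strand) encodes calponin, an actin-binding protein that restrains the myosin ATPase. It was at 43.4, 65.4, 58.4, 54.0 and 56.3 FPKM in ApoE-/- 1 to 5 and at 74.9, 91.5 and 92.3 in NPRC-/-ApoE-/- 1 to 3. All 3 NPRC-/-ApoE-/- libraries lay above all 5 ApoE-/- libraries, with means of 86.2 ± 9.79 (SD, n = 3) and 55.5 ± 8.01 (SD, n = 5). The log2 fold change of Cnn1 was 0.66 (standard error 0.17, unadjusted p = 0.0034, adjusted p = 0.26, edgeR's quasi-likelihood test), and the two-sided exact permutation test of its log2 CPM gave p = 0.036, the smallest value that 56 splits of 5 against 3 libraries allow. Smtn (chr11:3517523-3540612, minus strand) encodes smoothelin, a cytoskeletal protein found in contractile smooth muscle cells. Its FPKM was 39.3, 24.6, 30.6, 21.5 and 36.9 in ApoE-/- 1 to 5 and 42.6, 66.8 and 68.6 in NPRC-/-ApoE-/- 1 to 3. The groups did not overlap, but the gap between ApoE-/- 1 and NPRC-/-ApoE-/- 1 was small beside the distance to the other 2 NPRC-/-ApoE-/- libraries. Smtn had the highest fold change of the 10 genes, 0.99 on the log2 scale (standard error 0.24, unadjusted p = 0.0025, adjusted p = 0.26, edgeR's quasi-likelihood test; two-sided exact permutation p = 0.036).

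Tagln (chr9:45929619-45936058, minus strand) encodes transgelin, or SM22 alpha, an actin-binding protein that is among the earliest markers of the smooth muscle lineage. It was at 200.4, 229, 242, 215 and 254 FPKM in ApoE-/- 1 to 5 and at 207, 355 and 403 in NPRC-/-ApoE-/- 1 to 3. NPRC-/-ApoE-/- 1 was the second lowest of all 8 libraries for Tagln, and the spread was 102 FPKM (SD, n = 3) in NPRC-/-ApoE-/- against 21.3 (SD, n = 5) in ApoE-/- libraries. Its log2 fold change of 0.53 (standard error 0.23, unadjusted p = 0.047, adjusted p = 0.36, edgeR's quasi-likelihood test) was the lowest of the 9 genes with an unadjusted p-value under 0.05. Lmod1 (chr1:135324807-135368065, plus strand) encodes leiomodin, which nucleates actin filaments. It was at 11.8, 5.73, 9.0, 6.55 and 9.07 FPKM in ApoE-/- 1 to 5 and at 8.25, 18.3 and 18.0 in NPRC-/-ApoE-/- 1 to 3. Again NPRC-/-ApoE-/- 2 and 3 were highest and NPRC-/-ApoE-/- 1 lay within the ApoE-/- range (log2 fold change 0.85, standard error 0.31, unadjusted p = 0.023, adjusted p = 0.32, same test).

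For the myosin genes and the kinase, NPRC-/-ApoE-/- 2 and 3 were also the 2 highest libraries. Myh11 (chr16:14194535-14291372, minus strand), the smooth muscle myosin heavy chain and the most restricted marker of the lineage, was at 157, 134, 166, 109 and 197 FPKM in ApoE-/- 1 to 5 and at 171, 303 and 324 in NPRC-/-ApoE-/- 1 to 3. Its group means were 153 ± 33.4 (SD, n = 5) and 266 ± 83.1 (SD, n = 3), and its log2 fold change was 0.84 (standard error 0.27, unadjusted p = 0.014, adjusted p = 0.29, edgeR's quasi-likelihood test). Myl9 (chr2:156775420-156781658, plus strand), the regulatory light chain that the kinase phosphorylates, was at 222, 214, 274, 192 and 291 FPKM in ApoE-/- 1 to 5 and at 192, 452 and 518 in NPRC-/-ApoE-/- 1 to 3. Here NPRC-/-ApoE-/- 1 matched the lowest ApoE-/- library to 0.01 FPKM, and the NPRC-/-ApoE-/- libraries had a coefficient of variation of 44.5% (log2 fold change 0.73, standard error 0.31, unadjusted p = 0.040, adjusted p = 0.34). Mylk (chr16:34745210-35002420, plus strand), the myosin light chain kinase, was at 27.9, 19.3, 31.5, 19.6 and 34.3 FPKM in ApoE-/- 1 to 5 and at 30.0, 64.0 and 56.3 in NPRC-/-ApoE-/- 1 to 3. It had the second highest fold change of the 10 genes (log2 0.95, standard error 0.29, unadjusted p = 0.0097, adjusted p = 0.28, edgeR's quasi-likelihood test), although NPRC-/-ApoE-/- 1 lay below ApoE-/- 3 and 5.

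Des (chr1:75360329-75368579, plus strand) encodes desmin, an intermediate filament protein of all muscle types that links the contractile units to the cell membrane, and it went apart from the other 9. Its FPKM was 10.4, 15.2, 21.1, 10.4 and 10.0 in ApoE-/- 1 to 5 and 24.4, 8.57 and 20.2 in NPRC-/-ApoE-/- 1 to 3. NPRC-/-ApoE-/- 1, which was unremarkable for most of the other genes, had the highest Des level and NPRC-/-ApoE-/- 2 the lowest. The log2 fold change of 0.41 (standard error 0.38, unadjusted p = 0.31, adjusted p = 0.65, edgeR's quasi-likelihood test) did not exceed the spread between libraries.

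**Figure D1:**
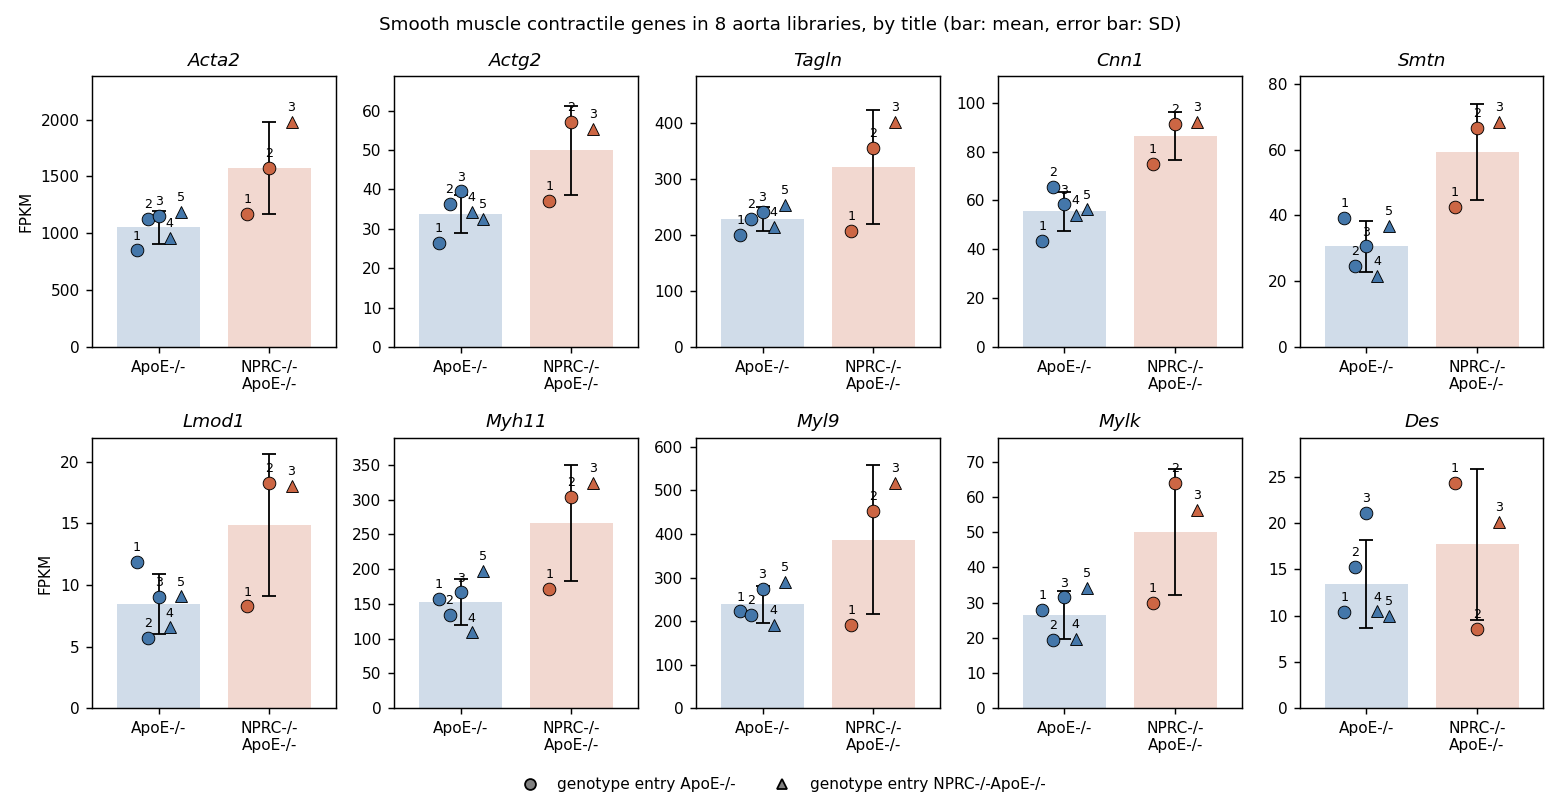
FPKM of the 10 contractile genes (y axis, from 0, on a scale of its own for each gene) in the 5 libraries titled ApoE-/- and the 3 titled NPRC-/-ApoE-/- (points with the library number; circles were entered as ApoE-/- and triangles as NPRC-/-ApoE-/-), with the mean (bar) and SD (error bar) of each titled group. In Cnn1 and Smtn the groups do not overlap, and in every gene but Des the libraries NPRC-/-ApoE-/- 2 and 3 are the highest.

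Across libraries, 9 of the 10 genes varied together. NPRC-/-ApoE-/- 2 and 3 held the 2 highest levels for each gene other than Des, while the median rank of NPRC-/-ApoE-/- 1 was 4 of 8. ApoE-/- 4 was among the 2 lowest libraries for 7 genes. Over the 8 libraries, Pearson's r of the log2 CPM of a gene with the mean of the other genes ranged from 0.82 (Lmod1) to 0.95 (Acta2 and Myh11), against 0.15 for Des. These correlations describe 8 libraries that all genes share, and they include the difference between the titled groups.

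**Figure D2:**
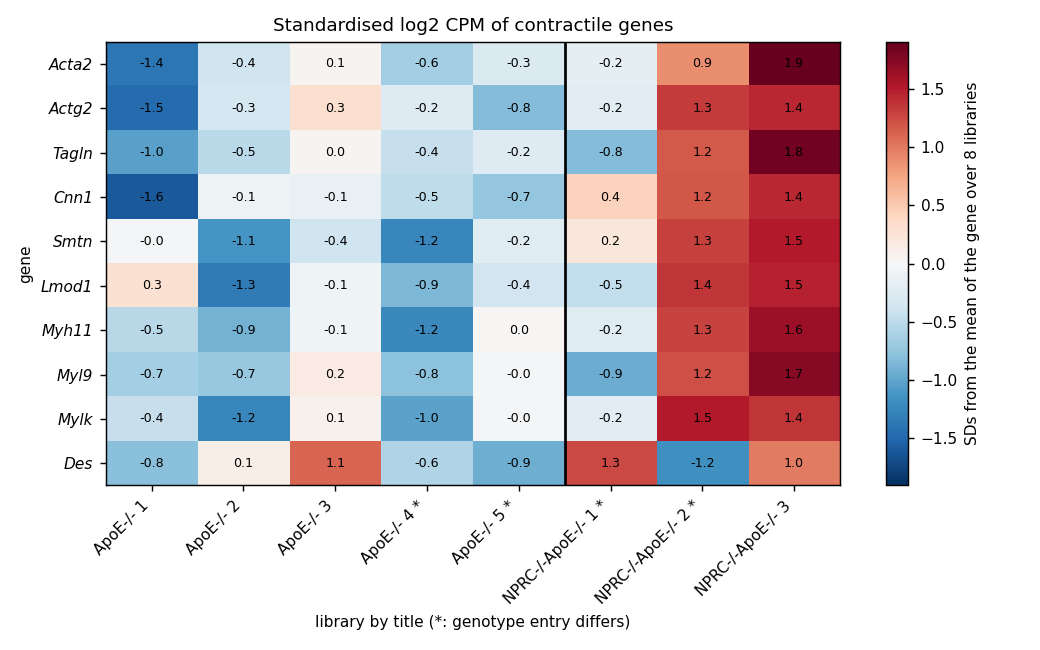
Log2 CPM of each gene (rows) in each library (columns), expressed as SDs from the mean of the gene over the 8 libraries (colour and printed value), with a line between the titled groups and a star where the genotype entry differs from the title. NPRC-/-ApoE-/- 2 and 3 are above the mean by 0.89 to 1.91 SD for 9 genes, whereas Des is 1.17 SD below its mean in NPRC-/-ApoE-/- 2.

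Grouped by title, all 10 fold changes were above 0 and 9 of the 10 genes passed an unadjusted p-value of 0.05, all higher in NPRC-/-ApoE-/- libraries. Of all loci tested, 6.51% were called higher by this rule, 7.13% lower and 13.6% in either direction. The median log2 fold change of the 10 genes was 0.70, against -0.0062 over all loci tested. By role, the median was 0.60 for the 2 actins, 0.75 for the 4 thin filament genes and 0.84 for the 3 myosin genes. After Benjamini-Hochberg adjustment over all loci, edgeR's quasi-likelihood test called 0 of the 10 genes (0.0% of all loci). DESeq2 called 2 of the 10 (650 of 20488 loci). Neither limma on log2(FPKM + 1) (2 of 20506 loci) nor limma-voom with sample quality weights (130 of 20506) called any of the 10. The DESeq2 calls were Smtn (adjusted p = 0.010) and Cnn1 (adjusted p = 0.026), whose adjusted p reached 0.73 and 0.74 over the alternatives that kept the title. None of the 10 genes met the criterion of a fold change above 2 with an unadjusted p-value under 0.05, which 1.08% of all loci met in the upward direction; Smtn came closest with a fold of 1.99. The FPKM of the groups did not overlap for 2 genes, Cnn1 and Smtn, and did not overlap in this direction for 2.88% of all loci (7.25% in either direction).

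The count of 9 genes rested on the NPRC-/-ApoE-/- libraries 2 and 3. Without NPRC-/-ApoE-/- 3 it was 3 genes, without NPRC-/-ApoE-/- 2 it was 5, and without any other library it was 6 to 9. Calls over all 20506 loci fell too, from 2797 with all libraries to 1373 without NPRC-/-ApoE-/- 3 and 1332 without NPRC-/-ApoE-/- 2. Without any other library they numbered 2060 to 4431. The median log2 fold change of the 10 genes stayed between 0.53 and 0.94. When only the 4 libraries with matching labels were fitted (3 against 1), the median was 1.06, and 7 of the 10 genes were higher at an unadjusted p-value under 0.05 (6.0% of all loci), 0 at an adjusted one (edgeR's quasi-likelihood test, in which the lone NPRC-/-ApoE-/- library is assumed to vary like the ApoE-/- ones). That lone library was NPRC-/-ApoE-/- 3, which had the highest contractile sum of the 8.

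Grouped by genotype entry, none of the 10 genes had an unadjusted p-value under 0.05 with edgeR, DESeq2 or limma on log2(FPKM + 1), where edgeR called 1.31% of all loci. By this grouping 9 of the 10 fold changes were above 0, as were 49.0% of those of all loci. They lay between 0.06 (Cnn1) and 0.34 (Myl9) while that of Des was -0.20, with a median of 0.12. The 2 libraries with the highest levels are on opposite sides in this grouping, since NPRC-/-ApoE-/- 2 was entered as ApoE-/-. Smtn was 40.8 FPKM ± 16.2 (SD, n = 5) in the libraries entered as ApoE-/- and 42.3 ± 24.0 (SD, n = 3) in those entered as NPRC-/-ApoE-/-. The columns of the gene table are named by the titles, also in these 4 conflicting libraries, and none by the genotype entry. A column name that repeats a title is not a measurement of the genotype. Which of the 2 labels is right could therefore not be told from the sources used here. Every comparison of genotypes rests on labels that conflict for 4 libraries.

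**Figure D3:**
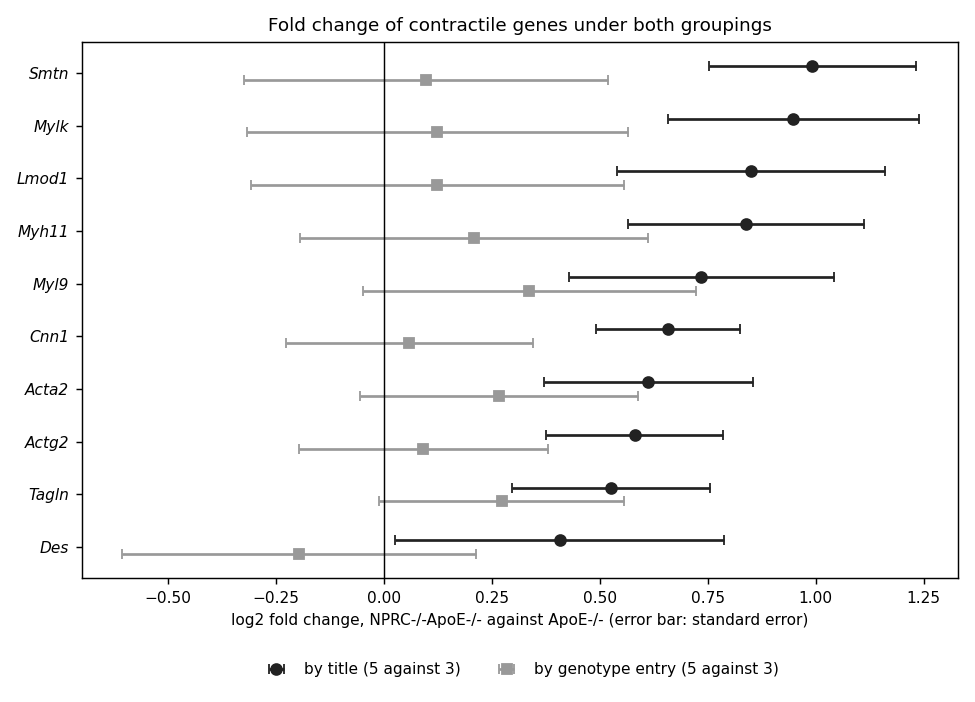
Log2 fold change of each contractile gene, NPRC-/-ApoE-/- against ApoE-/- (x axis), with its standard error, from edgeR's quasi-likelihood fit by title (black circles) and by genotype entry (grey squares), 5 against 3 libraries in both. By title the values run from 0.41 (Des) to 0.99 (Smtn), and by genotype entry from -0.20 (Des) to 0.34 (Myl9).

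To see whether the genes changed in proportion, the count of each was divided by that of Myh11 in the same library, which removes the scaling of the library. Tagln had the only difference between the titled groups that reached the smallest possible p. Its mean log2 ratio to Myh11 was -1.91 ± 0.27 (SD, n = 5) in ApoE-/- and -2.25 ± 0.04 (SD, n = 3) in NPRC-/-ApoE-/- libraries, lower by 0.33 in the latter (two-sided exact permutation p = 0.036, 0.32 after Benjamini-Hochberg adjustment over the 9 ratios). For the other 8 genes the differences ranged from -0.45 (Des) to 0.18 (Smtn) with exact permutation p-values of 0.21 to 0.93. With Acta2 as the reference, 0 of 9 ratios had an exact p-value under 0.05, and by genotype entry 0 of 9. With 3 libraries in a group, these p-values do not show that the genes kept their proportions.

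Of 28 tested loci with further genes of myosin, tropomyosin, kinases, phosphatase and their regulators, 19 had a fold change above 0 by title (49.1% of all loci), 8 were higher and 1 lower with an unadjusted p-value under 0.05 (6.51% and 7.13% of all loci), and the median log2 fold change was 0.13. By genotype entry 22 of the 28 were above 0 (49.0% of all loci), 0 passed at that p-value by edgeR (1.31% of all loci in either direction), and the median was 0.10. Ppp1r14a, the inhibitor of myosin light chain phosphatase known as CPI-17, had the highest fold change of them (log2 1.07, standard error 0.38, adjusted p = 0.31, edgeR's quasi-likelihood test), with 2.99 to 7.75 FPKM in ApoE-/- and 5.26 to 16.4 in NPRC-/-ApoE-/- libraries. Tpm1, a tropomyosin that lies along the actin filament, followed (log2 0.82, 15.7 to 26.0 against 23.5 to 45.4 FPKM, adjusted p = 0.27). The gene on the other side was Tagln2, a transgelin that is not restricted to smooth muscle (log2 -0.58, unadjusted p = 0.030), which was singled out after its values were seen.

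The dense plaques and bodies are where actin filaments are anchored to the membrane and to each other. All 27 tested loci of this list had a fold change above 0 by title (49.1% of all loci), 13 were higher with an unadjusted p-value under 0.05 and 0 lower (6.51% and 7.13% of all loci), and the median log2 fold change was 0.46. Ldb3, a PDZ and LIM domain protein that binds alpha-actinin, had the highest value (log2 0.90, standard error 0.19, adjusted p = 0.22, edgeR's quasi-likelihood test). It was at 1.98 to 3.22 FPKM in ApoE-/- and 3.56 to 5.72 in NPRC-/-ApoE-/- libraries, without overlap (2.88% of all loci in this direction). Synpo2, an actin-bundling protein that shares its locus with Gm43283, had a log2 fold change of 0.81, and Csrp2, a LIM protein of smooth muscle, of 0.76 (adjusted p = 0.29 and 0.30). By genotype entry 23 of these 27 loci were above 0 (49.0% of all loci) and the median was 0.13. An unadjusted p-value under 0.05 by edgeR was reached by 0 of them (1.31% of all loci in either direction).

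Among the regulators of the contractile genes, 7 of 8 were tested. By title 1 was higher and 2 were lower with an unadjusted p-value under 0.05 by edgeR (6.51% and 7.13% of all loci). The median log2 fold change was 0.065 by title and -0.053 by genotype entry, where 1 of the 7 passed at that p-value (1.31% of all loci in either direction). It was Mrtfa, a cofactor of serum response factor (log2 -0.58, unadjusted p = 0.023 by genotype entry), named after its values were seen. Myocd, the cofactor myocardin, had a log2 fold change of 0.59 (unadjusted p = 0.024, adjusted p = 0.32, edgeR's quasi-likelihood test), on a locus that it shares with Gm12293. Klf4, a repressor of contractile genes during phenotypic change, had a log2 fold change of -0.82 (unadjusted p = 0.019, adjusted p = 0.31, same test). It was at 8.04 to 17.0 FPKM in ApoE-/- and 6.25 to 7.04 in NPRC-/-ApoE-/- libraries, without overlap (7.25% of all loci in either direction). Elk1, which competes with myocardin for serum response factor, had a log2 fold change of -0.51 on a locus that it shares with Cfp and Uxt. Of the genes that smooth muscle cells are known to express after modulation in plaques, 0 of 11 tested loci had a fold change above 0 by title and 2 were lower with an unadjusted p-value under 0.05 (49.1% and 7.13% of all loci), namely Tnfrsf1b (log2 -1.06) and Ly6a (log2 -0.70, on a locus with 3 other names). Their median log2 fold change was -0.92 by title. By genotype entry it was -0.042, with 4 of the 11 above 0 (49.0% of all loci) and 0 at an unadjusted p-value under 0.05 by edgeR (1.31% of all loci). Several of these genes are also expressed by macrophages and fibroblasts.

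Markers of other cells of the aorta were measured in the same libraries. In RNA from whole tissue, fewer cells of a type and less RNA per cell cannot be told apart. Of 12 macrophage markers, 0 had a fold change above 0 by title (49.1% of all loci). With an unadjusted p-value under 0.05 by edgeR, 6 were lower (7.13% of all loci), among them the complement genes C1qb (log2 -1.45) and C1qc (log2 -1.47) and the Fc receptor gene Fcgr1 (log2 -1.46). The median log2 fold change of the 12 macrophage markers was -1.14 by title. By genotype entry it was -0.17, and 0 passed at that p-value by edgeR (1.31% of all loci in either direction). The summed FPKM of the 12 was 1009, 1526, 2236, 2333 and 753 in ApoE-/- 1 to 5 and 1179, 479 and 355 in NPRC-/-ApoE-/- 1 to 3. NPRC-/-ApoE-/- 2 and 3, the libraries with the highest contractile levels, had the lowest macrophage sums. Among the ApoE-/- libraries, ApoE-/- 5 had the highest contractile sum (2109 FPKM) and the lowest macrophage sum, while ApoE-/- 1 had the lowest contractile sum (1588 FPKM) and the second lowest macrophage sum. The 10 fibroblast markers summed to 778 to 1869 FPKM in ApoE-/- and 465 to 1034 in NPRC-/-ApoE-/- libraries, with 2 above 0 by title (49.1% of all loci). With an unadjusted p-value under 0.05 by edgeR, 2 were lower (7.13% of all loci), namely Dpt (log2 -0.86) and Dcn (log2 -0.84). The median log2 fold change of the 10 fibroblast markers was -0.61 by title and -0.10 by genotype entry, where 0 passed by edgeR (1.31% of all loci). No marker of either list was at 0 in all libraries. Their part in the contractile fold changes was not tested.

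**Figure D4:**
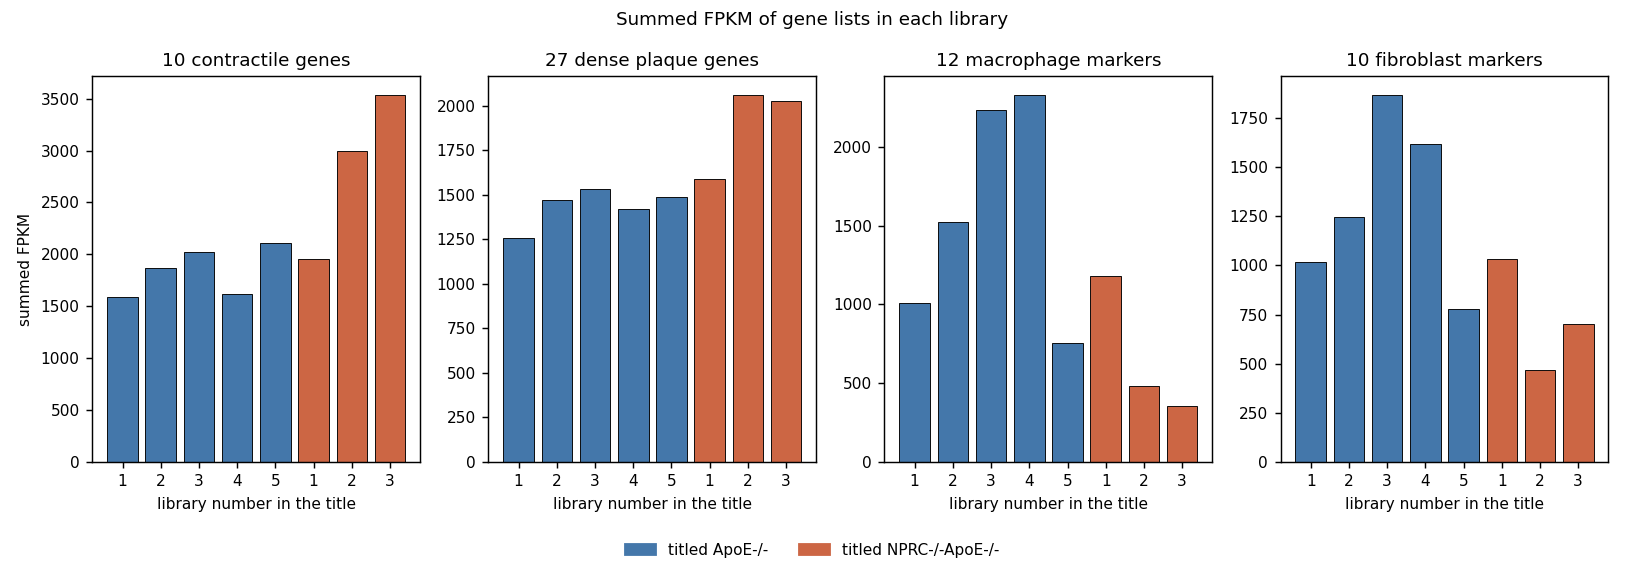
Summed FPKM (y axis, from 0) of the 10 contractile genes, 27 dense plaque genes, 12 macrophage markers and 10 fibroblast markers in each library, numbered as in the titles (blue, ApoE-/-; orange, NPRC-/-ApoE-/-). The contractile sum runs from 1588 (ApoE-/- 1) to 3537 (NPRC-/-ApoE-/- 3) and is highest in the 2 libraries in which the macrophage sum is lowest.

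The endothelial markers, by contrast, summed to 102 to 115 FPKM in ApoE-/- and 97.7 to 110.0 in NPRC-/-ApoE-/- libraries, and 0 of 10 had an unadjusted p-value under 0.05 by edgeR. Pericyte markers, which smooth muscle cells share in part, summed to 268 to 429 against 333 to 494 FPKM. Of these 6 markers, 3 had a fold change above 0 by title (49.1% of all loci), and the median log2 fold change was 0.12. Only Cspg4 was called higher (log2 0.47, unadjusted p = 0.010, edgeR's quasi-likelihood test, 6.51% of all loci). Of the 7 tested markers of Schwann cells and neurons, 6 were lower with an unadjusted p-value under 0.05 (7.13% of all loci), and the list summed to 19.0 to 40.0 FPKM in ApoE-/- and 7.61 to 13.8 in NPRC-/-ApoE-/- libraries. Their median log2 fold change was -1.69 by title and -0.26 by genotype entry. The 2 tested lymphocyte markers, Cd4 (log2 -1.56) and Ptprc (log2 -1.23), were lower by title at that p-value (7.13% of all loci). By genotype entry, 0 of the endothelial, pericyte, Schwann cell and neuron, and lymphocyte markers passed at it by edgeR (1.31% of all loci). White adipocyte markers (70.9 to 315 against 133 to 235 FPKM), brown fat markers (129 to 608 against 361 to 575 FPKM) and erythroid markers (173 to 1802 against 112 to 562 FPKM) overlapped between the titled groups, and 0 of their tested loci had an unadjusted p-value under 0.05 by edgeR. Genes of other muscle were low, since the skeletal muscle markers summed to 1.16 to 17.0 FPKM in ApoE-/- and 9.68 to 14.2 in NPRC-/-ApoE-/- libraries and the cardiomyocyte markers to 3.74 to 18.4 and 4.88 to 12.2. Acta1, the skeletal muscle actin, was at 0.190 to 3.41 against 1.73 to 4.11 FPKM. The calcium channel gene Ryr2 was the only one of these markers with an unadjusted p-value under 0.05 (log2 0.89, adjusted p = 0.32, edgeR's quasi-likelihood test, 6.51% of all loci higher). It was also the only 1 of 3 tested cardiomyocyte markers above 0, with Myh6 at log2 -2.09 and Actc1 at log2 -1.29. Des, which skeletal and cardiac muscle also express, was at 8.57 to 24.4 FPKM. Of the 6 mesothelial markers 0 passed the filter, and they summed to at most 6.24 FPKM.

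The genes whose pattern over the 8 libraries was most like that of the contractile genes were searched among 3458 other loci with a single name and a mean of at least 5 FPKM, by Pearson's r with the mean standardised level of the 10 genes. They were Kcnmb1 (r = 0.99), the smooth muscle beta subunit of the large-conductance calcium-activated potassium channel, Efhd1 (0.99), Reck (0.99), Sun2 (0.98), Fgf1 (0.97) and Lims2 (0.97). Kcnmb1 was at 6.40, 6.07, 7.28, 5.66 and 7.22 FPKM in ApoE-/- 1 to 5 and at 7.88, 11.2 and 13.5 in NPRC-/-ApoE-/- 1 to 3. Its groups did not overlap, as in 2.88% of all loci in this direction. At the other end stood Washc4 (r = -0.96), Steap4 (-0.95) and Slc30a1 (-0.95). These r values are the extremes of a search over many loci in 8 libraries and describe the pattern only.

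Of the 10 genes, 4 were also named on further loci of the assembly. A locus on the strand opposite to Acta2, within the span of the gene (chr19:34241569-34248427, GRCm38), had 1580 to 15422 counts per library, 3.07% of the counts of the main locus over all libraries. A locus opposite to Lmod1 that also carries the name Gm22796 (chr1:135325294-135362570) had 2828 to 14837 counts, 31.6% of those of Lmod1 itself. The library kit marked the strand, but whether the counting used it is not given in the sources used here, so reads of Lmod1 and of this opposite locus may not be separate. The log2 fold change of the opposite Lmod1 locus was 1.03 by title (unadjusted p = 0.010, adjusted p = 0.28, edgeR's quasi-likelihood test), near that of Lmod1. A further locus just downstream of Lmod1 had a log2 fold change of 1.00 (unadjusted p = 0.028), and the further loci of Actg2 and Cnn1 held at most 90 counts in any library.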

How the data were processed

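Poly(A) RNA of whole aortas of male mice was sequenced in paired ends from a kit that marks the strand. The study's methods give 5 animals per group, and 8 libraries were analysed here. Per the methods and the submitters' processing notes, the authors trimmed the reads with cutadapt 1.9, checked them with FastQC, mapped them with HISAT2 to GRCm38 and assembled them with StringTie. They deposited whole-number counts of every assembled locus, without normalization, and FPKM values, which the authors scaled to transcript length and library size. How counts were made from the assembly is not given in the sources used here. Sample columns that could not be assigned numbered 0. Levels are FPKM; tests used the counts.

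Groups were those of the title, repeated by genotype entry. Tests covered the 20506 loci that reached 1 FPKM in 3 or more libraries, in R 4.3.3 with edgeR 4.0.16 (TMM, quasi-likelihood test, Benjamini-Hochberg adjustment over these loci). The standard error is the log2 fold change divided by the root of the F statistic. CPM values had a prior count of 2. DESeq2 1.42.0, limma 3.58.1, other scalings and filters, a replicate block and leaving out each library were alternatives. Exact permutation tests used scipy 1.17.1. The biological coefficient of variation between libraries was 0.327. No pair of libraries agreed within sampling noise (smallest mean chi-square per locus 140.4). Nothing states more of the animals behind the libraries, so p-values measure the spread between these libraries. On simulated counts of 20506 loci for the titled groups (5 against 3), with 200 loci changed 4-fold, 99.5% of the changed loci passed an adjusted p-value of 0.05, while unchanged loci made up 4.33% of the calls.

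The contractile genes and the gene lists were chosen with earlier results of these data known. Named were all 10 genes, up to 3 genes per list with the largest fold change among those with an unadjusted p-value under 0.05 (or else drawn from the 2 with the highest mean FPKM), the 6 most and 3 least alike loci, and Npr3. The results of some genes that this rule names are not reported here. Coordinates are those of GRCm38 with GENCODE M21; promoters are RefSeq's for GRCm38.p6, matched by symbol.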

Additional observations from a re-analysis of the deposited data

Results flagged for a closer look

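In ApoE-/- 1, the log2 ratio of the Smtn count to the Myh11 count was -1.78, apart from the other 4 libraries titled ApoE-/-, where it was -2.12 to -2.23. The gap exceeded the Dixon limit for 5 libraries. Of 38 such groups checked, 1 was beyond the limit, where chance gives 1.9. Smtn itself was highest of the ApoE-/- libraries in ApoE-/- 1 (39.3 FPKM).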

How the results depend on the processing

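The choice of label changed the result. The count of contractile genes with an unadjusted p-value under 0.05 was 9 by title and 0 by genotype entry, and the median log2 fold change 0.70 and 0.12. It was 1.06 in the 4 libraries with agreeing labels, a setting chosen after seeing the data. Des turned to -0.20 by genotype entry. An adjusted p-value under 0.05 was reached by 0 genes, and by 2 with DESeq2 (650 of all loci, against 0 with edgeR and 130 with limma-voom sample weights). Leaving out each library gave 3 to 9 genes and a median of 0.53 to 0.94 by title, and a median of -0.29 to 0.42 by genotype entry, below 0 without NPRC-/-ApoE-/- 3; 0 genes had an adjusted p-value under 0.05 in any of these fits. Libraries with the same replicate number in the titles had deviations correlated at -0.27, -0.13 and -0.01. No pairing by number was seen, but so few pairs cannot exclude it. A replicate block in the 6 libraries numbered 1 to 3 left 3 genes (1813 of all loci). The same 6 without the block left 4 (2651 of all loci), against 9 in all 8 (2797 of all loci). Fewer libraries were fitted. The 1 ratio to Myh11 with an exact p-value under 0.05 became 0 with Acta2 as the reference and 0 by genotype entry. Smtn by genotype entry was -0.019 with limma on log2(FPKM + 1).

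Leaving out 1 library at a time, every gene had a fit in which its log2 fold change by genotype entry changed sign, with ranges of -0.14 to 0.46 (Acta2), -0.23 to 0.28 (Actg2), -0.078 to 0.46 (Tagln), -0.27 to 0.22 (Cnn1), -0.49 to 0.41 (Smtn), -0.45 to 0.43 (Lmod1), -0.30 to 0.51 (Myh11), -0.18 to 0.62 (Myl9), -0.38 to 0.49 (Mylk) and -0.64 to 0.019 (Des); by title no fold change did, and Cnn1, Smtn and Mylk kept an unadjusted p-value under 0.05 in all 8 fits.

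Over the settings that kept all 8 libraries and the title, the count was 6 to 9 genes, and Tagln, Acta2 and Myl9 were the genes lost with limma. The scalings left the count at 9. The lowest value of any of the 10 genes was 5.73 FPKM (Lmod1 in ApoE-/- 2).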
